A study of Mus musculus with 20 samples.

Results

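The genes followed here were 40 genes of the cell cycle and of DNA replication, measured by RNA sequencing of mouse ears in 2 models of skin disease. They were picked by gene symbol, and all 40 were found in both gene tables, among 19501 genes for the ACD model and 19234 genes for the AD model. By role they fall into 6 groups: 11 genes of replication licensing and the fork, 4 of deoxynucleotide supply, 4 regulators of the G1/S step, 8 cyclins, kinases and their activator of mitotic entry, 7 spindle and chromosome motors and binders, and 6 genes of the spindle checkpoint, anaphase and chromosome structure. SB415286 is a small molecule that inhibits the kinase GSK3. It was injected into the abdomen, and ears were taken 4 h later. The 4 groups were ACD mice given SB415286 at 2 mg/kg, ACD controls, AD mice given SB415286 at 0.7 mg/kg and AD controls, with 5 libraries in each. The treatment protocol names AD mice beside both doses, and the sample labels and the text on the design, which give 2 mg/kg to the ACD model, were followed. All were C57BL/6 mice, which the protocol describes as 6 to 7 weeks old and 16 to 18 g. The controls are given as untreated on each sample and as vehicle controls in the text on the design. The labels use AD and ACD without spelling them out, and how either model was induced is not given in the sources used here. As labelled, dose and model changed together, so a difference between the models cannot be told from a difference between doses. The labels do not say that each library is a separate mouse, so p-values measure the spread between libraries.

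A dividing cell first licenses its replication origins: CDC6 and CDT1 load the MCM2 to MCM7 helicase onto DNA, and CDC45 and the GINS complex then turn the helicase on. Ribonucleotide reductase, thymidylate synthase and thymidine kinase supply the deoxynucleotides, and cyclin E with E2F1 drives entry into S phase. Cyclins A and B with CDK1, and the kinases PLK1, AURKA and AURKB, carry the cell into mitosis, where kinesin motors, BUB1 and CDC20 set the pace of chromosome segregation. In skin the dividing cells are mainly basal keratinocytes and cells of the hair follicle, and activated immune cells also divide. GSK3 is known to phosphorylate cyclin D1 and beta-catenin and so to promote their breakdown.

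In mammals the transcription of these genes is known to follow 2 kinds of promoter element. E2F sites are typical of G1/S genes, and CCAAT boxes with a cell cycle genes homology region (CHR) are typical of G2/M genes. Promoters from RefSeq (GRCm38.p6), each with 250 bases before and 50 bases after the start, were matched for 32 of the 40 genes and gave 34 windows, since Mcm7 and Uhrf1 had more than 1 start. Mcm4, Aurkb, Kif20a, Ccne2, Gins2, Ccna2, Foxm1 and Tpx2 had no entry. Words were searched on both strands. The CCAAT word was searched as such and the CHR words were TTTGAA and TTTAAA. The E2F words were those of the form TTNNCGC with C or G at each N. Words of different kinds overlapped in 2 windows. The 6 promoters given here belong to genes that the results turn on, and capitals mark the words found.
Rrm1, chr7:102441445-102441744, plus strand: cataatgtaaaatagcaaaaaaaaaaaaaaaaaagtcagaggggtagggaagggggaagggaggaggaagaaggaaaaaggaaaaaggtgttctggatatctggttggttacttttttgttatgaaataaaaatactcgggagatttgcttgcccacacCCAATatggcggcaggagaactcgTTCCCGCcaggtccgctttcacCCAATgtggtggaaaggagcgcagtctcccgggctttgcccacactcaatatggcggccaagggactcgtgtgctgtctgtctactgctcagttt
Mcm3, chr1:20820263-20820562, minus strand: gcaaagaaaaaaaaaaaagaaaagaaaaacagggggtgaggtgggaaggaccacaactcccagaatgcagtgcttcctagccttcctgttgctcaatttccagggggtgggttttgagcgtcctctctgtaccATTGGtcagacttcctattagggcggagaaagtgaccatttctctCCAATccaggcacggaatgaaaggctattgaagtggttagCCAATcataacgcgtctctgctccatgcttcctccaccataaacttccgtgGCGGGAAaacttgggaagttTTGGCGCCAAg
Cdt1, chr8:122567765-122568064, plus strand: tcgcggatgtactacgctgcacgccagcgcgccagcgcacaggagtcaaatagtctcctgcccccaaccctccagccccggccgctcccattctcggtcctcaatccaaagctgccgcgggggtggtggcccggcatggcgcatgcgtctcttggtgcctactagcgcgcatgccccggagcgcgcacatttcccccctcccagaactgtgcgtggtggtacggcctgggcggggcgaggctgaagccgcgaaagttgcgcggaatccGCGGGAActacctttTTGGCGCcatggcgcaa
Cdk1, chr10:69352863-69353162, minus strand: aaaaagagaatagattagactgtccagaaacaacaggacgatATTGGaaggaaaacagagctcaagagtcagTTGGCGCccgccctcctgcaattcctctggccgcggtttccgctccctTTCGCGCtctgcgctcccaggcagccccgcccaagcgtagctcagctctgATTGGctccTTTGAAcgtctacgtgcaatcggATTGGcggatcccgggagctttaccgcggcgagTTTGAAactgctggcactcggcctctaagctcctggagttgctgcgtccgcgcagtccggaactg
Ccnb2, chr9:70421505-70421804, minus strand: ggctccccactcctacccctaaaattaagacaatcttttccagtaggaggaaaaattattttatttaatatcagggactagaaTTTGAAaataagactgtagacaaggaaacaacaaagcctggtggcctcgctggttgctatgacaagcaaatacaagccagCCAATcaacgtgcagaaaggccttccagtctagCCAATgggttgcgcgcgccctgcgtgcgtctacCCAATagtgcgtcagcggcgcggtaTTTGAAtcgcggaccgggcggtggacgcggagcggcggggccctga
Top2a, chr11:99024140-99024439, minus strand: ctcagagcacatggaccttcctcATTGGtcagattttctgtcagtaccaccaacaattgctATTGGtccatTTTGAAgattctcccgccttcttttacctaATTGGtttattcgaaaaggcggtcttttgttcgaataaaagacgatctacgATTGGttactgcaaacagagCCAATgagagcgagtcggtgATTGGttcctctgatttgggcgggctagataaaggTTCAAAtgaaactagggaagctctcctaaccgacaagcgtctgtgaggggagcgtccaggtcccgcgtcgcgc
Ccnb2 held CCAAT words 87, 54 and 21 bases before the start and TTTGAA just after it, and Cdk1 held CCAAT and TTTGAA words alternating over the last 80 bases before the start. Top2a held 6 CCAAT words. Cdt1 held 2 E2F words and neither of the other kinds.

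Both CCAAT and a CHR word were present in 13 of 16 promoters from the 3 mitotic role groups (81.2%), in 5 of 18 promoters from the replication, nucleotide and G1/S groups (27.8%), and in 10.7% of all 32851 promoters in the table. An E2F word was present in 3 of the 16 mitotic promoters (18.8%), in 11 of the 18 others (61.1%) and in 9.57% of all promoters. These shares depended on the window: from 100 bases before the start, CCAAT with a CHR word was present in 68.8% of the mitotic promoters, 11.1% of the others and 3.03% of all, and an E2F word in 6.25%, 33.3% and 5.6%. CCAAT alone was present in 76.5% of the windows of these genes and in 37.4% of all. Among promoters of protein-coding genes, CCAAT with a CHR word was present in 9.95%, an E2F word in 12.1% and CCAAT in 38.2%. From 100 bases before the start, the first 2 of these shares were 2.75% and 7.15%. These are letter matches in 1 window per start and show no binding.

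**Figure D1:**
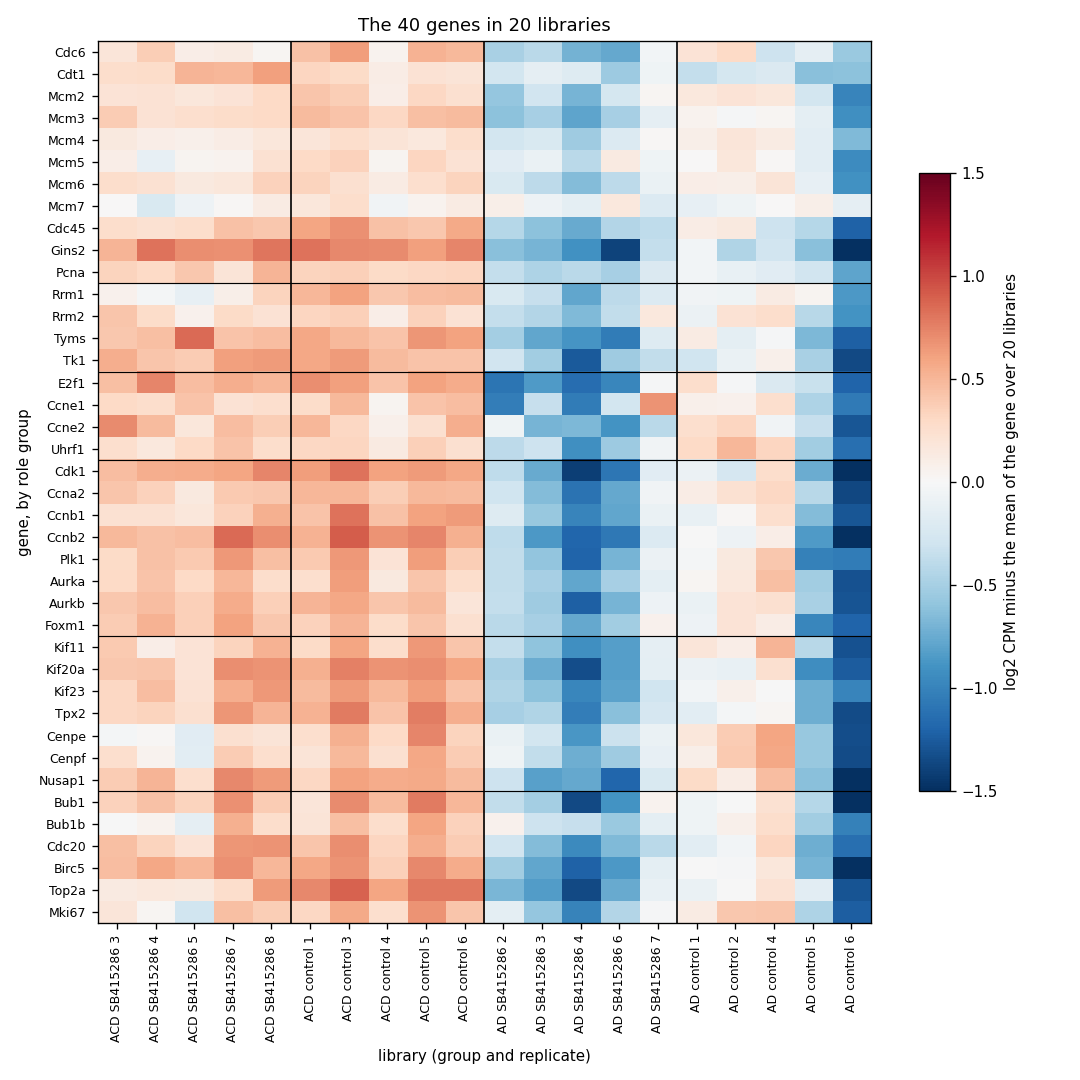
Heat map of the 40 genes (rows, by role group) in 20 libraries (columns, by group and replicate), coloured by log2 CPM (counts per M, mega, of library counts) minus the mean of the gene over all libraries, scaled jointly, with values beyond the ends of the scale drawn in the end colour. AD control 6 is the bluest column for most rows, and the 10 ACD columns are red for most rows.

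Per unit of gene length, Pcna, the sliding clamp of DNA polymerases, had the highest mean level of the 40 genes in every group: 123 ± 8.83 FPKM in ACD SB415286 libraries, 125 ± 2.85 FPKM in ACD controls, 75.8 ± 9.77 FPKM in AD SB415286 libraries and 87.3 ± 17.8 FPKM in AD controls (SD, n = 5 each). FPKM are fragments per kb of effective gene length, scaled to the fragments of the library, as deposited by the authors. The licensing factor Cdc6 had the lowest mean in every group, at 1.16 ± 0.123, 1.45 ± 0.216, 0.774 ± 0.209 and 1.07 ± 0.295 FPKM in the same 4 groups. Birc5, the survivin subunit of the chromosomal passenger complex, averaged 33.9 ± 3.23 FPKM in ACD SB415286 libraries, 35.5 ± 3.27 FPKM in ACD controls, 15.1 ± 5.31 FPKM in AD SB415286 libraries and 20.2 ± 8.56 FPKM in AD controls. All values that follow are CPM with TMM scaling within a table unless stated, so they compare libraries and not genes.

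Library totals, in M counts (M for mega), were 19.4 to 20.2 M in ACD SB415286 libraries, 18.8 to 20.1 M in ACD controls, 18.2 to 20.9 M in AD libraries with SB415286, and 19.7 to 20.6 M in those of AD controls. Markers of skin were present in every library: the 6 basal keratinocyte markers summed to between 7177 and 15678 CPM, and no gene of the 18 marker lists that was found in the tables was at 0 in all libraries of a group. B cell and germinal centre markers summed to at most 4.00 CPM. These are bulk samples, in which fewer dividing cells and less RNA per dividing cell cannot be told apart.

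In the ACD comparison, which asked how the inhibitor changed expression in ACD ears, none of the 40 genes passed the threshold in either direction by the quasi-likelihood test of edgeR, adjusted over all genes by the Benjamini-Hochberg method (adjusted p under 0.05), while 0.0264% of the 15150 genes tested did. At an unadjusted p under 0.05 there were 11 of the 40, of which 10 were lower with SB415286 and 1 was higher, beside 13.8% of all genes in either direction and 6.4% lower. The median log2 change of the 40 was -0.09, against -0.01 for all genes, and 35 of the 40 were below 0, as were 51.5% of all genes. Without ACD control 3 the median was -0.06. The standard errors ran from 0.05 to 0.14 on the log2 scale. DESeq2 called 3 of the 40 lower, Rrm1, Top2a and Cenpe (1.11% of all genes lower), and limma voom with quality weights called Rrm1 and Top2a (0.0792% lower).

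Rrm1, the large subunit of ribonucleotide reductase, had 76.5, 70.1, 66.4, 77.7 and 90.9 CPM in ACD SB415286 libraries (replicates 3, 4, 5, 7 and 8), against 102, 111, 96.5, 101 and 103 CPM in ACD controls (replicates 1, 3, 4, 5 and 6). Every SB415286 library lay below every control. The log2 change was -0.43 ± 0.08 (SE, n = 5 per group; edgeR adjusted p = 0.0943). The other subunit gene, Rrm2, which limits the enzyme's activity over the cycle, had a log2 change of -0.02 ± 0.08, and Tyms had -0.04 ± 0.09. Tk1, thymidine kinase, had 37.6, 33.8, 33.3, 39.4 and 39.6 CPM in SB415286 libraries and 38.1, 40.2, 35.8, 34.7 and 34.8 CPM in controls, which overlapped (0.00 ± 0.07). Of the 4 nucleotide supply genes, then, Rrm1 alone had groups that did not overlap.

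Top2a, the topoisomerase that untangles replicated chromosomes, had 105, 104, 105, 114 and 146 CPM in ACD SB415286 libraries, against 156, 176, 144, 165 and 166 CPM in ACD controls. SB415286 replicates 3, 4, 5 and 7 lay below every control, and replicate 8 lay just above the lowest control. The log2 change was -0.49 ± 0.10 (edgeR adjusted p = 0.113). Without SB415286 replicate 8, Rrm1 (-0.50 ± 0.07, edgeR adjusted p = 0.0217) and Top2a (-0.60 ± 0.07, edgeR adjusted p = 0.0136) passed the threshold, and 0.0787% of all genes were then lower. Mki67, which encodes the proliferation marker Ki-67, had 129.7, 115, 92.2, 155 and 145 CPM in SB415286 libraries and 139.8, 169.9, 136, 182 and 153 CPM in controls. The groups overlapped, and the log2 change was -0.29 ± 0.14.

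Groups without overlap were found in the ACD model for 3 of the 40 genes, Rrm1, Cenpe and Mcm4, each lower with SB415286, beside 1.59% of all genes lower without overlap. Cenpe, a kinesin of the kinetochore, had 15.6, 15.8, 14.0, 18.7 and 17.9 CPM in SB415286 libraries and 18.8, 23.1, 19.6, 26.5 and 20.3 CPM in controls, with a gap of less than 1 CPM between the groups (log2 change -0.40 ± 0.11, edgeR adjusted p = 0.193). Mcm4, a subunit of the replicative helicase, had 54.0, 51.2, 51.0, 52.6 and 54.0 CPM in SB415286 libraries and 54.9, 58.8, 55.6, 54.5 and 59.1 CPM in controls. Its groups were also close, and the log2 change was small at -0.11 ± 0.05 (edgeR adjusted p = 0.357).

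Cdt1, the licensing factor that is degraded once S phase starts, lay on the other side of 0. It had 30.6, 30.2, 36.0, 35.8 and 38.5 CPM in ACD SB415286 libraries, against 31.5, 31.1, 27.4, 29.5 and 29.4 CPM in ACD controls. SB415286 replicates 5, 7 and 8 were above every control and replicates 3 and 4 were within the range of the controls (log2 change 0.20 ± 0.08, edgeR adjusted p = 0.301). Its partner in licensing, Cdc6, had 5.50, 6.14, 5.13, 5.23 and 4.84 CPM in SB415286 libraries and 6.50, 7.54, 5.01, 6.96 and 6.86 CPM in controls. There the difference had the opposite sign, -0.29 ± 0.13, and control 4 was among the low values.

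**Figure D2:**
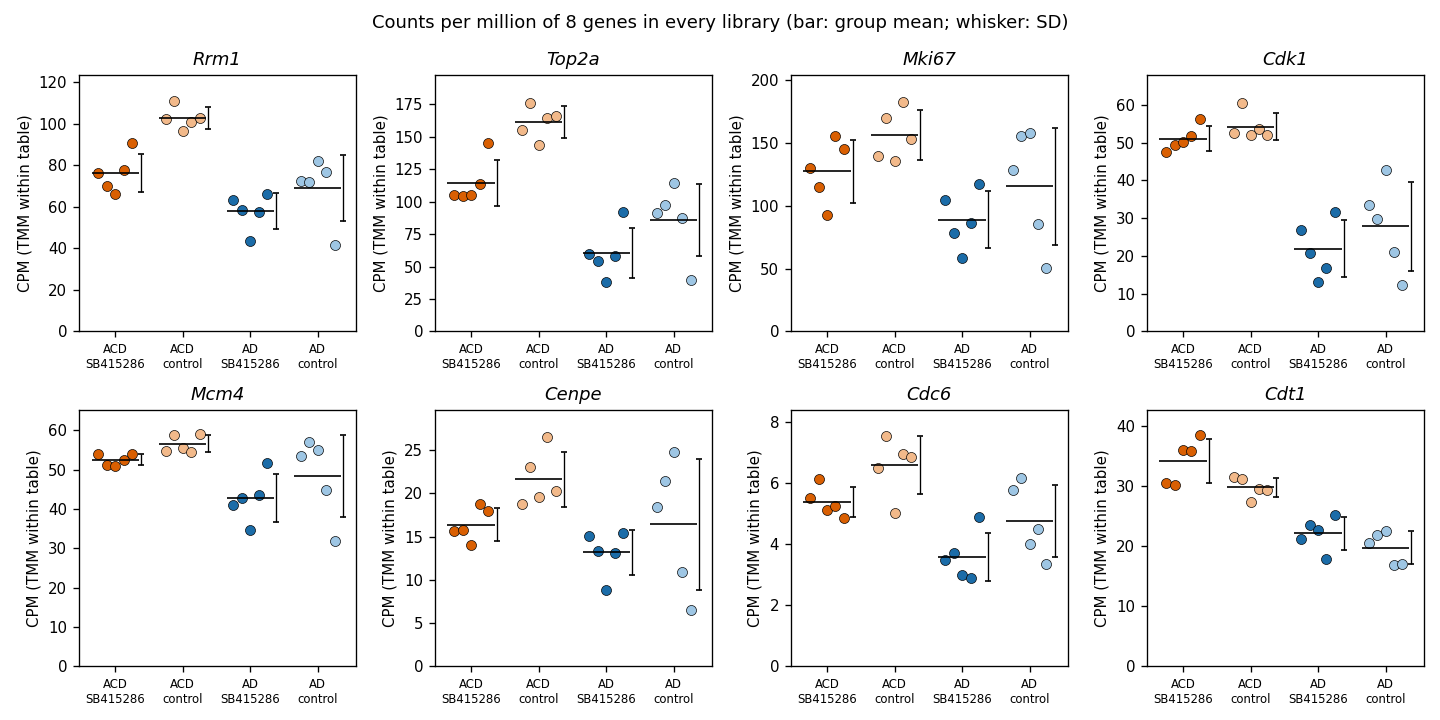
CPM (TMM within table; vertical axes start at 0) of Rrm1, Top2a, Mki67, Cdk1, Mcm4, Cenpe, Cdc6 and Cdt1 in every library of the 4 groups; bars are group means and whiskers SD (n = 5). In the ACD groups Rrm1, Mcm4 and Cenpe do not overlap, and in the AD groups control 6 is the lowest control for every gene shown but Cdt1.

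By role in the ACD model, the 7 spindle and chromosome motors and binders had a median log2 change of -0.17 and the 6 checkpoint, anaphase and chromosome structure genes one of -0.17. The 11 licensing and fork genes had a median of -0.11, the 8 mitotic entry genes -0.06, the 4 G1/S regulators -0.03 and the 4 nucleotide supply genes -0.03. Within the mitotic entry group, Ccnb1, which encodes cyclin B1, had the largest difference: 42.2, 41.6, 40.3, 45.6 and 51.3 CPM in SB415286 libraries, against 48.2, 63.3, 48.8, 55.0 and 56.7 CPM in controls (log2 change -0.30 ± 0.09, edgeR adjusted p = 0.206). Cdk1, the kinase that cyclin B1 activates, had 47.6, 49.3, 50.3, 51.7 and 56.4 CPM in SB415286 libraries and 52.7, 60.5, 52.1, 53.8 and 52.0 CPM in controls. Its groups overlapped and the log2 change was -0.09 ± 0.06. The other 6 genes of mitotic entry, Ccna2, Ccnb2, Plk1, Aurka, Aurkb and Foxm1, had log2 changes between -0.13 and 0.09. Pcna, E2f1, Uhrf1 and Birc5 differed by at most 0.06 in size on the log2 scale, each with an SE of 0.06 to 0.08.

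Cell type markers were summed in the same libraries. Of the 18 marker lists, neutrophil markers alone had sums that did not overlap, at 4935 to 7725 CPM in SB415286 libraries against 2585 to 4753 CPM in controls. All 6 neutrophil markers had log2 changes above 0 (median 0.75) and none passed by edgeR. The 8 macrophage and monocyte markers were all below 0 (median -0.31), with sums of 1746 to 2674 CPM in SB415286 libraries and 2328 to 2734 CPM in controls, and none passed. The 7 skeletal muscle markers were also all below 0 (median -0.62), with none passed and the lowest sum, 87.6 CPM, in SB415286 replicate 8. So were the 6 basal keratinocyte markers (median -0.16), the 6 T cell markers tested (-0.30), the 6 mast cell markers (-0.07) and the 5 adipocyte markers (-0.18). The 1 B cell marker tested was below 0 as well, and no marker of these lists passed. The part of these cells in the changes of the 40 genes was not tested.

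In the AD comparison, which put the same question to AD ears, none of the 40 genes passed the threshold by edgeR, while 1.23% of the 15149 genes tested did, and none had an unadjusted p under 0.05, as 20.1% of all genes did. DESeq2 called none of the 40 either, beside 4.02% of all genes lower. The median log2 change was -0.32, against 0.00 for all genes, and 37 of the 40 were below 0, beside 49.9% of all genes. The median depended on single libraries: it was -0.17 without control 4, -0.21 without SB415286 replicate 4 and -0.49 without control 6. With limma voom it was -0.53. The standard errors ran from 0.08 to 0.38, and their median was 0.28, against 0.08 in the ACD model. No gene of the 40 had groups that did not overlap, beside 4.65% of all genes. In this comparison 2 libraries, SB415286 replicate 7 and control 6, lay towards the other group. Without both, the standard errors ran from 0.08 for Pcna to 0.28 for Plk1, against 0.08 to 0.38 with all libraries. The part of these 2 libraries in the spread was not tested.

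Top2a had 59.9, 54.3, 37.95, 58.2 and 91.9 CPM in AD SB415286 libraries (replicates 2, 3, 4, 6 and 7), against 91.6, 97.8, 114, 87.5 and 39.995 CPM in AD controls (replicates 1, 2, 4, 5 and 6). SB415286 replicate 7 lay among the controls and control 6 among the SB415286 libraries (log2 change -0.51 ± 0.28, edgeR adjusted p = 0.331). Rrm1 had 63.4, 58.6, 43.6, 57.5 and 66.1 CPM in SB415286 libraries and 72.6, 72.1, 82.0, 76.9 and 41.6 CPM in controls. For Rrm1 all 5 SB415286 libraries were below the first 4 controls, and control 6 was the lowest of all 10 (log2 change -0.25 ± 0.18, edgeR adjusted p = 0.440). Cdc6 had the smallest p of the 40, with 3.48, 3.70, 2.99, 2.90 and 4.87 CPM in SB415286 libraries and 5.76, 6.17, 4.02, 4.49 and 3.35 CPM in controls (log2 change -0.41 ± 0.21, edgeR adjusted p = 0.306). The same pair of libraries crossed over for Cdc6.

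Among the G1/S regulators, E2f1, the transcription factor that turns on S phase genes, had 6.30, 7.59, 6.19, 6.96 and 13.8 CPM in AD SB415286 libraries, against 16.7, 13.7, 11.9, 10.9 and 5.97 CPM in AD controls. SB415286 replicates 2, 3, 4 and 6 stood near the lowest control and replicate 7 near the higher controls (log2 change -0.53 ± 0.30, edgeR adjusted p = 0.335). Ccne2, one of the cyclin E genes, had 9.17, 5.88, 5.98, 5.17 and 7.38 CPM in SB415286 libraries and 11.6, 12.2, 9.41, 7.56 and 3.93 CPM in controls (-0.41 ± 0.28). Uhrf1, which keeps DNA methylation through replication, had 20.6, 22.0, 14.4, 18.8 and 26.7 CPM in SB415286 libraries and 34.0, 38.9, 34.4, 19.0 and 12.5 CPM in controls (-0.44 ± 0.29). In both genes control 5 was within the SB415286 range and control 6 below it. Ccne1, the other cyclin E gene, reached 18.0 CPM in SB415286 replicate 7 and had the widest spread of the 40 genes in that group, an SD of 0.71 on the log2 scale.

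Of the mitotic genes, Mki67 had 104, 78.0, 58.5, 86.6 and 117 CPM in AD SB415286 libraries, against 128, 156, 158, 85.1 and 50.2 CPM in AD controls (log2 change -0.38 ± 0.30). Cdk1 had 26.9, 20.9, 13.2, 16.8 and 31.7 CPM in SB415286 libraries and 33.4, 29.9, 42.8, 21.04 and 12.2 CPM in controls (-0.35 ± 0.33). Both genes had their lowest value in control 6. Birc5 had 17.1, 14.3, 10.6, 13.8 and 22.7 CPM in SB415286 libraries and 24.9, 24.8, 28.1, 15.3 and 8.64 CPM in controls (-0.37 ± 0.31). Tpx2, which activates AURKA on the spindle, had 25.4, 26.5, 17.7, 23.8 and 31.0 CPM in SB415286 libraries and 33.03, 35.8, 37.4, 21.9 and 14.5 CPM in controls (-0.20 ± 0.25). In each of these genes controls 5 and 6 were the lowest controls. Tk1 had 21.3, 18.2, 10.9, 18.3 and 20.7 CPM in SB415286 libraries and 21.6, 24.7, 28.0, 18.8 and 10.4 CPM in controls, with control 6 again the lowest. The medians of the 6 role groups ran from -0.42 for the G1/S regulators to -0.23 for nucleotide supply.

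The genes above 0 in the AD model were Cdt1, Mcm5 and Mcm7. Cdt1 had 21.2, 23.6, 22.7, 17.9 and 25.2 CPM in SB415286 libraries, against 20.4, 21.9, 22.6, 16.8 and 17.0 CPM in controls (log2 change 0.16 ± 0.12, edgeR adjusted p = 0.467), so the groups overlapped. Mcm5 had 0.02 ± 0.19, and -0.15 ± 0.12 without SB415286 replicate 7 and control 6. Mcm7 had 0.01 ± 0.08 and ranged from 44.5 to 56.8 CPM over SB415286 libraries and from 46.5 to 53.8 CPM over controls. Mcm5 and Mcm7 each changed sign in some of the alternative settings. The Mcm7 locus also holds the microRNA genes Mir25, Mir93 and Mir106b and overlaps Ap4m1. By whole gene span, on either strand, 15 of the 40 genes overlap another annotated gene, Top2a, E2f1, Ccne2 and Gins2 among them. Overlap of exons was not examined, so whether reads of a neighbouring gene entered these values was not tested.

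Control 6 was the lowest AD control for 39 of the 40 genes, and SB415286 replicate 7 was the highest AD SB415286 library for 32. SB415286 replicate 4 was the lowest of its group for 31 genes and control 4 the highest of the controls for 25. Summed over the 40 genes, AD SB415286 libraries held 1099, 991, 798, 978 and 1309.6 CPM and AD controls held 1416, 1486, 1592, 1074 and 674 CPM. ACD SB415286 libraries held 1657, 1582, 1549.7, 1759 and 1812 CPM and ACD controls held 1803, 1991, 1702, 1931 and 1847 CPM. The AD libraries spanned a wider range than the ACD libraries. The median SD of a gene's log2 CPM within a group was 0.13 for the 40 genes and 0.19 for all genes in ACD SB415286 libraries, and 0.12 and 0.15 in ACD controls. In AD SB415286 libraries it was 0.32 for the 40 genes and 0.23 for all genes, and in AD controls 0.59 and 0.23.

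Some marker sums of other cells set 1 or both of these libraries apart, and others did not. T cell markers, of which 6 of the 7 listed were matched, summed to 14.8 to 20.0 CPM in 4 AD SB415286 libraries and to 48.5 CPM in replicate 7. They summed to 73.8, 31.2, 51.0, 37.9 and 20.1 CPM in the AD controls, with control 6 the lowest. Neutrophil markers summed to 775 CPM in SB415286 replicate 7, against 142 to 189.5 CPM in the other 4, and to 118 CPM in control 6, against 336 to 479.8 CPM in the other controls. Suprabasal keratinocyte markers summed to 6006 CPM in SB415286 replicate 7 and to between 13308 and 26968 CPM in the other AD SB415286 libraries, while control 6 (22219 CPM) lay within the controls, at 14099 to 24131 CPM. Skeletal muscle markers summed to 96.7 CPM in SB415286 replicate 7, against 752 to 2228 CPM in the other 4, and to 2868 CPM in control 6, against 1150 to 1692 CPM in the other controls. Of the 18 lists, dendritic and Langerhans cell markers alone had sums that separated the AD groups. These were 54.0 to 83.2 CPM in SB415286 libraries against 88.9 to 116 CPM in controls. All 6 of these markers were below 0 (median log2 change -0.57) and 1 was lower by edgeR. In the cartilage and Schwann cell lists, whose sums overlapped, 1 marker each was also lower by edgeR. All tested markers were below 0 in the suprabasal keratinocyte, T cell, neutrophil, erythroid, skeletal muscle, adipocyte and B cell lists. All 6 melanocyte markers were above 0 (median 0.79). Fibroblast markers summed to 6774 CPM in SB415286 replicate 7, the highest of its group, and to 3483 CPM in control 6, the lowest control. Hair matrix and shaft markers summed to 49.9 to 142 CPM in AD SB415286 libraries and to 22.3 to 55.4 CPM in AD controls. SB415286 replicate 7 (58.2 CPM) and control 6 (31.1 CPM) lay within these ranges. The part of these cells in the values of the 40 genes was not tested.

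Leaving out SB415286 replicate 7 and control 6 together, which were chosen because they lie towards the other group, draws the groups apart by construction. With 4 libraries a group, 21 of the 40 genes were lower with SB415286 and none higher by edgeR, beside 13.8% of all genes lower, and the median log2 change was -0.61. The 21 were 6 of 11 licensing and fork genes, 3 of 4 nucleotide supply genes, 2 of 4 G1/S regulators, 3 of 8 mitotic entry genes, 3 of 7 motors and binders, and 4 of 6 genes of the checkpoint and chromosome structure. E2f1 (-0.98 ± 0.15), Top2a (-0.90 ± 0.15) and Mcm3 (-0.60 ± 0.09) had the smallest adjusted p (0.00421, 0.00486 and 0.00361 by edgeR). Groups did not overlap for 10 of the 40 genes, beside 14.1% of all genes lower without overlap. They were Cdc6, Mcm3, Mcm4, Mcm6, Cdc45, Gins2, Pcna, Rrm1, E2f1 and Top2a. With control 6 alone left out, Mcm3 was lower (4.36% of all genes lower), and with SB415286 replicate 7 alone left out none of the 40 was. On all 10 libraries, limma voom, which gives outlying libraries less weight, called 7 lower: Mcm3, Mcm6, Rrm1, E2f1, Ccna2, Kif11 and Top2a (11.8% of all genes lower).

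**Figure D3:**
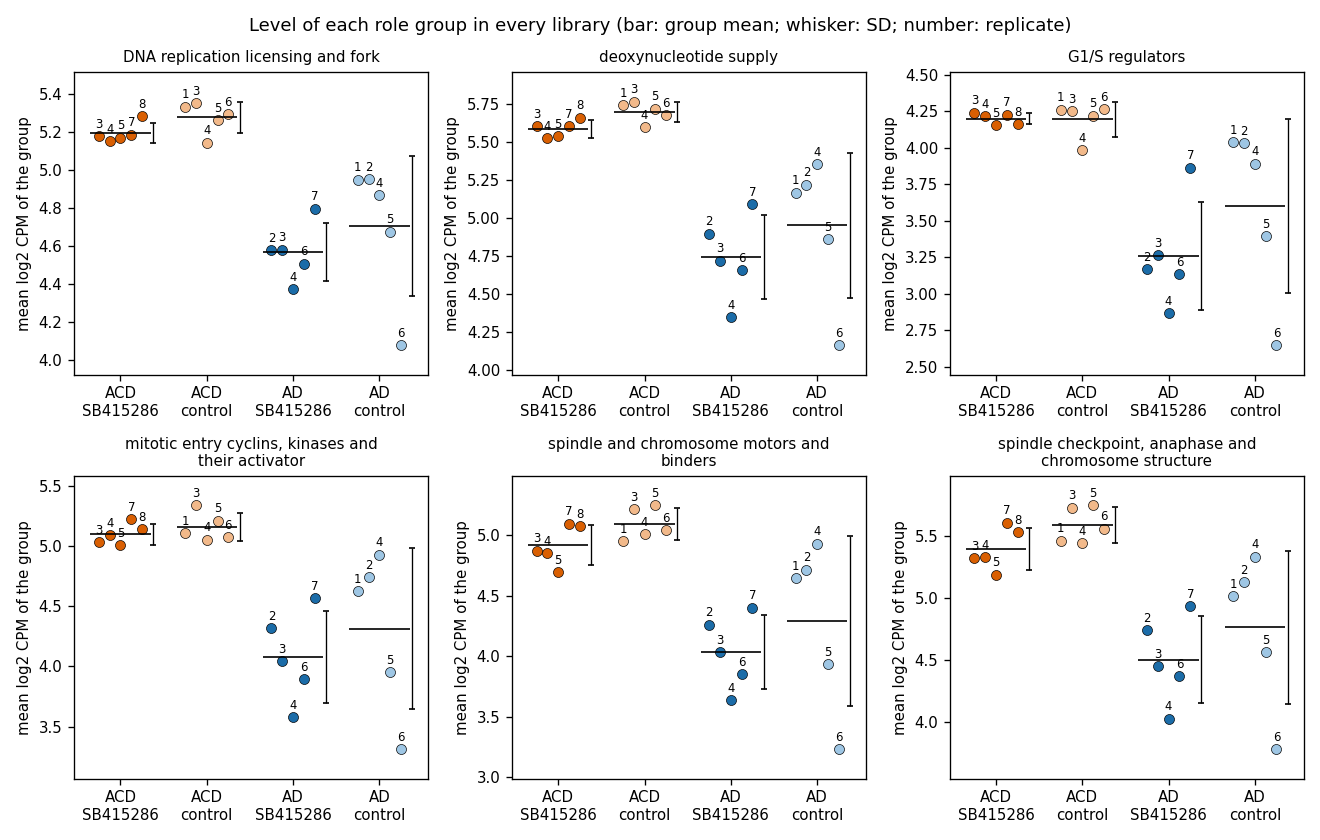
Mean log2 CPM (joint scaling) of the genes of each role group in every library; points are libraries with their replicate number, bars are group means and whiskers SD (n = 5). AD control 6 is the lowest of the 20 libraries in all 6 panels, and the ACD libraries lie above the AD group means in every panel.

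The difference between the models in the effect of SB415286, tested as an interaction over all 20 libraries, was past the threshold for none of the 40 genes by edgeR, while 0.051% of the 15700 genes tested passed. None had an unadjusted p under 0.05, beside 12.6% of all genes, and DESeq2 called none, beside 0.497% of all genes higher. The median of ACD minus AD was 0.19 on the log2 scale, against 0.01 for all genes. It was 0.10 without AD control 4, 0.11 without AD SB415286 replicate 4 and 0.12 without AD control 2, and 0.33 without AD SB415286 replicate 7, 0.36 without AD control 6 and 0.42 with limma voom. Ccne2 (0.51 ± 0.32, edgeR adjusted p = 0.511) and E2f1 (0.48 ± 0.31, edgeR adjusted p = 0.526) had the smallest p. In ACD libraries E2f1 had 18.5, 22.0, 18.4, 19.5 and 18.7 CPM with SB415286 and 21.7, 20.7, 18.1, 20.4 and 19.9 CPM in controls. Ccne2 there had 15.6, 12.9, 10.5, 13.001 and 12.001 CPM with SB415286 and 13.2, 11.7, 9.92, 11.2 and 13.9 CPM in controls. Neither gene separated the ACD groups. For Top2a the log2 difference between the models was 0.03 ± 0.31, for Rrm1 -0.17 ± 0.20 and for Mki67 0.09 ± 0.35. Limma voom called E2f1 (3.54% of all genes higher). Leaving out both AD libraries, a setting added after the data were seen, draws the AD groups apart by construction. It therefore moves ACD minus AD as well, and its counts are no separate evidence of a difference. In that setting 10 of the 40 were higher in ACD minus AD, beside 7.1% of all genes. These were Mcm2, Mcm3, Mcm6, Pcna, Tyms, E2f1, Uhrf1, Ccna2, Nusap1 and Birc5, and Top2a and Rrm1 were not among them.

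**Figure D4:**
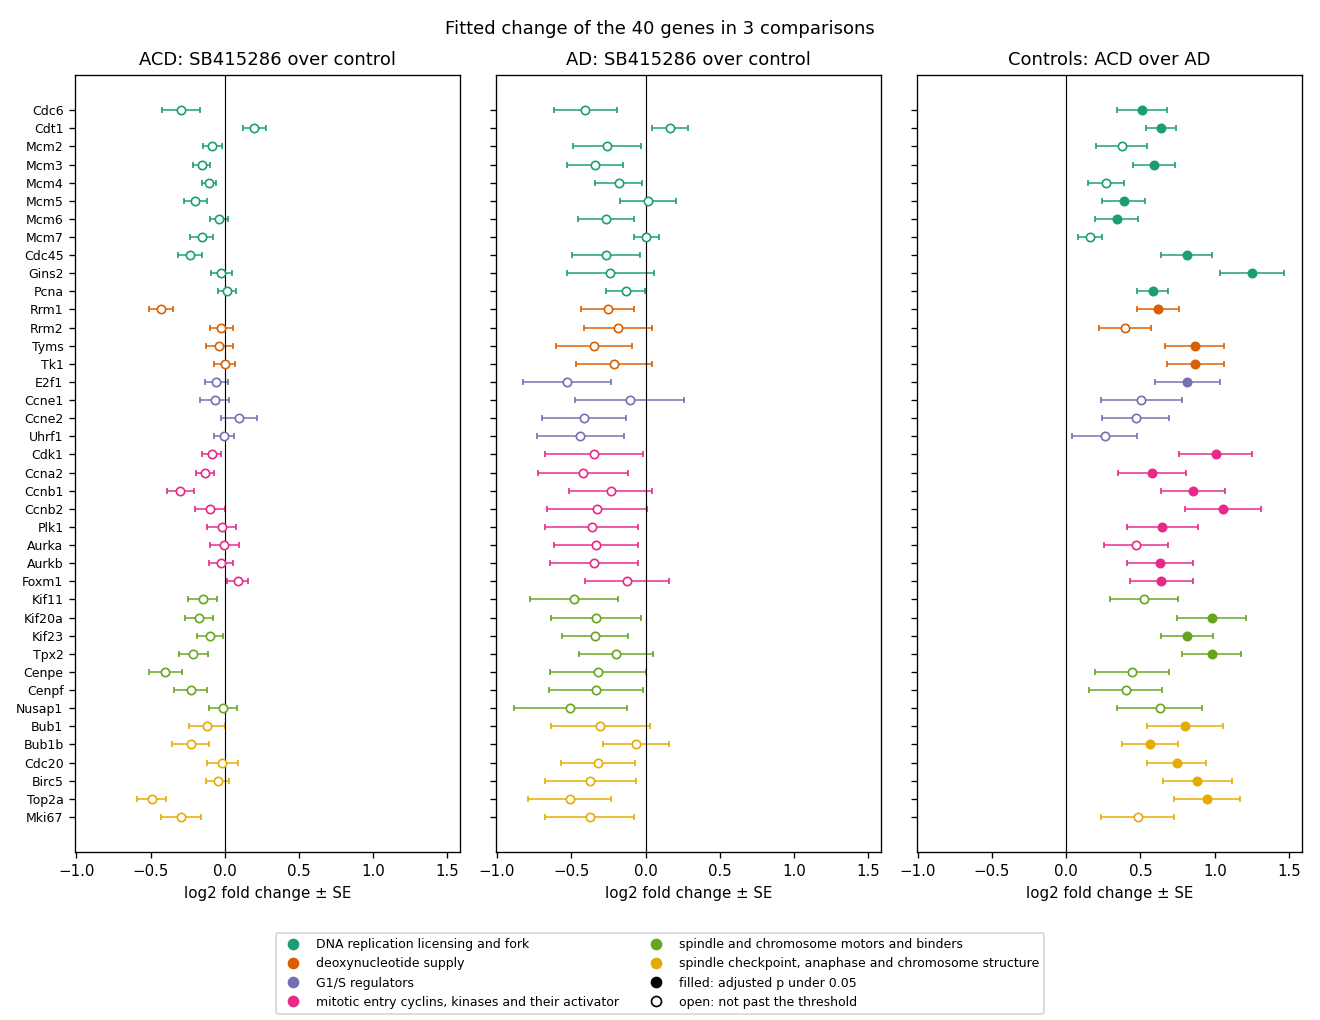
Log2 fold change ± SE of the 40 genes (rows) for SB415286 over control in the ACD model, SB415286 over control in the AD model, and ACD controls over AD controls; filled points passed an adjusted p under 0.05 by edgeR. No point is filled in the first 2 panels and 27 are filled, all above 0, in the third.

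The controls differed between the models. In ACD controls against AD controls, 27 of the 40 genes were higher and none was lower by the same edgeR test and adjustment, beside 29.5% of the 15700 genes higher and 32% lower. All 40 log2 changes were above 0, as were 47.5% of all genes, and the median was 0.62 against -0.04 for all genes. Groups did not overlap for 20 of the 40, each higher in ACD controls, beside 23.2% of all genes. Model, table and any difference in handling coincide in this comparison and cannot be told apart. Values here are CPM scaled jointly over both tables.

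Gins2, a subunit of the GINS complex, had the largest difference: 19.6, 18.4, 18.2, 17.0 and 18.6 CPM in ACD controls, against 10.8, 8.10, 9.12, 7.17 and 3.28 CPM in AD controls (log2 change 1.25 ± 0.22, edgeR adjusted p = 7.79e-05). Every ACD control was above every AD control. Cdt1 had the smallest p, with 32.2, 31.5, 27.7, 29.8 and 29.5 CPM in ACD controls and 20.0, 21.5, 22.1, 16.6 and 16.7 CPM in AD controls (0.64 ± 0.10, edgeR adjusted p = 3.82e-05). Pcna had 153, 155, 148, 149.8 and 151 CPM in ACD controls and 117, 112, 108, 99.0 and 69.5 CPM in AD controls (0.58 ± 0.10, edgeR adjusted p = 0.000106). The 3 genes act at the replication fork or in licensing, and none of them overlapped between the groups. Mcm7 had the smallest log2 change of the 40, 0.16 ± 0.08.

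In the mitotic groups, Ccnb2, which encodes cyclin B2, had 28.0, 36.8, 31.2, 32.4 and 28.3 CPM in ACD controls, against 19.4, 18.4, 20.98, 10.8 and 5.75 CPM in AD controls (log2 change 1.06 ± 0.26, edgeR adjusted p = 0.00176). Cdk1 averaged 54.9 ± 3.66 CPM in ACD controls and 27.3 ± 11.5 CPM in AD controls (SD, n = 5 each; 1.01 ± 0.25, edgeR adjusted p = 0.00185). Tpx2 averaged 55.2 ± 6.02 CPM in ACD controls and 28.0 ± 9.72 CPM in AD controls (0.98 ± 0.20, edgeR adjusted p = 0.000347). For these 3 genes every ACD control was above every AD control, although AD controls 5 and 6 were well below the other AD controls. Mki67 averaged 158 ± 19.8 CPM in ACD controls and 113 ± 45.7 CPM in AD controls, where 2 AD controls lay within the ACD range (0.48 ± 0.25, edgeR adjusted p = 0.0965). Uhrf1 averaged 32.6 ± 1.95 CPM in ACD controls and 27.2 ± 11.1 CPM in AD controls (0.26 ± 0.22, edgeR adjusted p = 0.309), and 1 AD control was above all ACD controls. By role, 8 of 11 licensing and fork genes, 3 of 4 nucleotide supply genes, 1 of 4 G1/S regulators, 7 of 8 mitotic entry genes, 3 of 7 motors and binders and 5 of 6 checkpoint and structure genes were higher.

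Cell type markers, summed here as CPM scaled within each table and not jointly, differed between the controls as well. Neutrophil markers summed to 2585 to 4753 CPM in ACD controls and to 118 to 479.8 CPM in AD controls. T cell markers summed to 68.4 to 101 CPM in ACD controls and to 20.1 to 73.8 CPM in AD controls. Suprabasal keratinocyte markers summed to 3553 to 6383 CPM in ACD controls and to 14099 to 24131 CPM in AD controls, and basal keratinocyte markers to 9588 to 12286 CPM in ACD controls and 10763 to 13798 CPM in AD controls. Hair matrix and shaft markers summed to 5.66 to 12.2 CPM in ACD controls and to 22.3 to 55.4 CPM in AD controls. The part of these cells in the levels of the 40 genes was not tested.

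Other genes of the cell cycle, in 6 further lists of 94 genes of which 93 were tested, were examined in the same fits. By edgeR none of the 93 passed in the ACD model, the AD model or the difference between them, and their median log2 changes were -0.07, -0.13 and 0.09. In ACD controls against AD controls 45 were higher and 12 lower, beside 29.5% of all genes higher and 32% lower. The pocket protein list had 2 of 16 higher and 4 lower, and the checkpoint list 3 of 9 higher and 2 lower. All 12 that were lower came from the D-type cyclin and G1 kinase, CDK inhibitor, pocket protein and checkpoint lists. Of 30 other mitotic genes 20 were higher, Spc24 of the kinetochore by 1.69 ± 0.27 and the centromere histone Cenpa by 1.14 ± 0.21 on the log2 scale. Of 26 origin, polymerase and fork genes 15 were higher, the primase subunit Prim2 by 0.78 ± 0.12. Ccnd3 (0.70 ± 0.09) and Cdk4 (0.47 ± 0.07) were higher, while Ccnd2 (-0.74 ± 0.12) and Cdk6 (-0.85 ± 0.15) were lower. The inhibitors split too, with 2 of the 6 tested higher and 3 lower. Cdkn2d (1.31 ± 0.13) and Cdkn1a (0.46 ± 0.13) were higher, and Cdkn1c (-1.45 ± 0.17) and Cdkn2b (-0.94 ± 0.22) were among the lower ones.

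With SB415286, the gene with the smallest p in each further list did not pass. In the ACD model these were Pola1, the catalytic subunit of the primase-polymerase (-0.55 ± 0.11, edgeR adjusted p = 0.113), the kinesin Kif2c (-0.57 ± 0.13, edgeR adjusted p = 0.153) and Cdkn1a, which encodes the CDK inhibitor p21 (0.48 ± 0.11, edgeR adjusted p = 0.153). Ccnd1, Lin54 and Atm completed them, at -0.09 ± 0.07, 0.20 ± 0.07 and -0.31 ± 0.10. In the AD model they were the origin gene Orc2 (0.40 ± 0.09, edgeR adjusted p = 0.0540), the factor E2f2 (-0.70 ± 0.17, edgeR adjusted p = 0.0668), the kinesin Kif4 (-0.46 ± 0.21), Pkmyt1 (-0.29 ± 0.15), Cdkn2c (-0.17 ± 0.10) and Cdk4 (-0.15 ± 0.09). For E2f2 the log2 difference of ACD minus AD was 0.66 ± 0.20 (edgeR adjusted p = 0.200).

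After each group mean was subtracted, the 40 genes varied together over libraries. The median Pearson r over the 780 pairs of genes was 0.83 over the 20 libraries, 0.40 over the 10 ACD libraries and 0.88 over the 10 AD libraries. It was 0.68 over the 8 AD libraries without SB415286 replicate 7 and control 6. Pairs within a role group had a median of 0.88 over the 20 libraries and pairs from different role groups 0.82. Over the ACD libraries 119 of the 780 pairs had r below 0, and over the AD libraries 16. These values carry no test, since all genes of a library share its depth and tissue. Pairs of other genes were not examined, so whether this is particular to the 40 genes is not known. Mcm7 had the lowest r to the mean of the other genes over the 20 libraries, 0.10, with 0.66 over the ACD libraries and 0.01 over the AD libraries, and Cdt1 and Cdc6 came next at 0.61 and 0.67. In ACD libraries Tyms (-0.31), Gins2 (-0.01) and Pcna (0.01) followed the others least.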

How the data were processed

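RNA was oligo(dT)-selected and sequenced on the MGISEQ-2000. The authors deposited a table for each model, with unnormalised expected counts and FPKM values for every gene and library. Per the submitters' processing notes, the tools were RSEM 1.2.8, Bowtie2 2.2.5, HISAT2 and HISAT, and GRCm38.p6 and GRCh38.p13 are both listed with no role given. Expected counts were rounded and tested with edgeR 4.0.16 in R 4.3.3 (filterByExpr by group, TMM, robust quasi-likelihood fit, 2-sided, threshold 0.05), over 15150 genes in the ACD table, 15149 in the AD table and 15700 of the 18835 genes in both. Alternatives used DESeq2 1.42.0, limma 3.58.1 on voom weights or on log2 of FPKM plus 1 or 0.1, other scalings and filters, and left-out libraries. Within a group, no library repeated another.

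Values in each library are given, in at least 1 comparison, for the 2 genes with the smallest p in each comparison. They are also given for the gene of highest mean FPKM in each role group and for Mki67, Top2a, Pcna and Cdk1. Of genes past the threshold, at most the 3 of largest log2 change and the 3 of smallest p are given. Cenpe and Mcm4 were added after their values were seen. The 40 genes and all lists were chosen with earlier results of these data known. The fits were tested on simulated data. Reads carry no molecular identifiers, and strand was not known.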

Additional observations from a re-analysis of the deposited data

Results flagged for a closer look

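In 92 groups of 5 values, made of the role group scores and the CPM of the genes given per library, 6 had a highest or lowest value set far apart from the rest by Dixon's test at 95%. Chance flags about 1 group in 20. In ACD SB415286 libraries, replicate 8 was high for the licensing and fork score (5.29 mean log2 CPM) and for Top2a (146 CPM). In ACD controls, replicate 4 was low for the score of the G1/S regulators (3.98 mean log2 CPM) and replicate 3 was high for Cdk1 (60.5 CPM). In AD SB415286 libraries, replicate 7 was high for E2f1 (13.8 CPM). In AD controls, replicate 6 was low for Rrm1 (41.6 CPM).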

How the results depend on the processing

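Other scalings, filters, units and tests left the absence of higher genes among the 40 in both models. The 27 genes higher in ACD controls became 25 to 33 in these settings and 24 with the control libraries alone. They became 22 without AD control 5 and 36 without AD control 4, so the count stayed within 1.5 times of 27. The genes lower with SB415286 in the AD model became 7 with limma voom, 21 without both libraries that lie apart, and 0 to 1 with single libraries left out. In the ACD model they became 3 with DESeq2, 2 with limma voom, and 0 to 2 with single libraries left out. In ACD minus AD the higher genes became 1 with limma voom and 10 without both AD libraries. Leaving out both AD libraries draws the AD groups apart by construction. The cause of the other shifts was not tested. E2F words were present in 33.3% of the replication, nucleotide and G1/S promoters in the window that starts 100 bases before the start, where fewer bases are searched.

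Of the 40 genes, 11 in the ACD model, 5 in the AD model and 12 in ACD minus AD changed sign in at least 1 setting, and 0 of these passed in any setting run. Among those given in each library, the turns were as follows. In the ACD model Pcna turned to -0.0029 with limma voom and to -0.017 on either FPKM scale, Tk1 to -0.0093 with upper quartile scaling, to -0.0060 and -0.0063 on the FPKM scales with 1 and 0.1 added and to -0.079 with the replicate block, and Uhrf1 to 0.0058 in a fit of all libraries. In ACD minus AD, Ccnb1 turned to 0.17 with limma voom and 0.23 without both AD libraries, Tpx2 to 0.017, 0.13 and 0.25 with upper quartile scaling, limma voom and without both, Mki67 to -0.12 and Top2a to -0.031 with the replicate block, and Rrm1 to 0.017 without both. With single libraries left out, ACD log2 changes ran from -0.026 to 0.051 for Pcna, -0.031 to 0.035 for Tk1, -0.047 to 0.025 for Uhrf1 and -0.050 to 0.020 for Gins2. The ACD minus AD values then ran from -0.22 to 0.11 for Ccnb1, -0.12 to 0.16 for Tpx2, -0.048 to 0.28 for Mki67, -0.10 to 0.22 for Top2a and -0.026 to 0.094 for Cdt1. For Cenpe, ACD minus AD was -0.075 and ran from -0.27 to 0.19 over all settings, with the sign turned in 5 of 31.

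Whether the title numbers pair libraries cannot be settled from the 3 numbers that the groups of each model share. Deviations of same-numbered libraries correlated between -0.20 and 0.25 for those of AD and between -0.18 and 0.20 for those of ACD. For AD number 6 and ACD number 5, 1 library each correlated best with its own number, and for the other shared numbers none did. As a block the title numbers gave 0 of the 40 genes past the threshold in each model, and a median log2 change of -0.35 for AD and -0.17 for ACD. These block values rest on the shared numbers, since an unshared number holds a single library. Over all genes, the AD counts of 89 higher and 98 lower became 618 and 609 with DESeq2, 1795 and 1793 with limma voom, 810 and 651 in a fit of all libraries, 23 and 25 with no filter, 64 and 156 on log2 of FPKM plus 1, 0 and 0 with the block, and 0 to 755 higher and 0 to 668 lower with single libraries left out. The ACD counts of 3 and 1 became 247 and 168 with DESeq2, 5 and 12 with limma voom, 4 and 9 with upper quartile scaling, and 1 to 6 higher and 1 to 12 lower with single libraries left out. In ACD minus AD, 5 and 3 became 78 and 100 with DESeq2, 556 and 631 with limma voom, and 1119 and 998 without both AD libraries. The median SE of the 40 genes on the log2 scale was 0.08 for ACD and 0.28 for AD, so the AD values were the less precise.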
